A study of Homo sapiens with 20 samples.

Results

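Immortalized human pericytes given eNAMPT and PDGF-BB together were compared with pericytes given eNAMPT without PDGF-BB, to describe what the growth factor adds to cells that already receive the cytokine. The comparison takes the 5 RNA sequencing libraries labelled with both factors and the 5 labelled with eNAMPT, 10 of the 20 libraries of the series, chosen by their titles. Cells of the first group received recombinant human eNAMPT at 500 ng/mL with recombinant human PDGF-BB at 20 ng/mL for 4 hours. Cells of the second group received eNAMPT at 500 ng/mL for the same 4 hours. All were the wild-type line CL 05008-CLTH, a single immortalized line kept in DMEM with fetal bovine serum. The other 10 libraries, PDGF-BB at 20 ng/mL and untreated control cells, 5 each, enter the model and are set beside the main comparison near the end. The titles number the samples as biological replicates 1 to 5 without saying how the cultures were set up, so p-values measure the spread between these samples, which may be partly technical.

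Pericytes are the mural cells that wrap capillaries and small vessels. PDGF-BB is a dimeric growth factor, made in vessels mainly by endothelial cells. It binds the receptor tyrosine kinase PDGFRB on pericytes and activates the ERK and PI3K pathways, which act on serum response factor, AP-1 and ETS transcription factors and drive proliferation, migration and recruitment to vessels. PI3K and AKT signalling also keeps FOXO transcription factors out of the nucleus. eNAMPT is the secreted form of NAMPT, an enzyme of NAD salvage, and has been described to act as a cytokine through TLR4 and NF-kB.

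Adding PDGF-BB raised most tested immediate early genes and part of the tested ERK feedback genes, secreted growth factors and inflammatory genes. It lowered some genes of the BMP pathway and, in calls that more often ended when a library was left out, some FOXO target and mitotic genes. Of 12111 genes tested, 359 were higher and 152 lower with eNAMPT + PDGF-BB than with eNAMPT, which is 2.96% and 1.26% of the genes tested and 4.22% together (edgeR quasi-likelihood test with replicate number as a block, Benjamini-Hochberg adjusted p under 0.05). An unadjusted p under 0.05 was reached by 1779 genes, where 606 would be reached if no gene differed. Most changes were small: the median log2 fold change was 0.43 among the higher genes and -0.41 among the lower ones, and 39 higher and 12 lower genes changed by at least 2-fold. The fold changes of called genes ran from 2.12 for TAGLN3, a calponin family gene, to -1.82 for PARD6B, a cell polarity gene. The same direction held in 5 of 5 replicate pairs for 307 of the higher and 120 of the lower genes. The test was blocked on the same replicate numbers, so agreement within pairs is partly built into the calls.

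Called genes of both directions were more abundant than the median of 28.1 CPM (TMM-scaled counts relative to the library total) for all genes tested. The median level was 92.4 CPM for the higher genes and 60.1 CPM for the lower genes. Small changes are called more readily at high counts, and the part this plays was not tested. Together the 359 higher genes took 90700 CPM in eNAMPT + PDGF-BB libraries and 71100 CPM in eNAMPT libraries. The 152 lower genes took 27200 CPM with both factors and 32500 CPM with eNAMPT. Without the replicate block, 143 genes were higher and 42 lower, all of them among the calls above. Scaling by spike-in transcripts moved the median of all genes by -0.16 on the log2 scale and left 36 higher and 28 lower genes, so that 56.2% of calls were higher, against 70.3% with TMM. Changes are therefore given relative to the other genes.

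**Figure D1:**
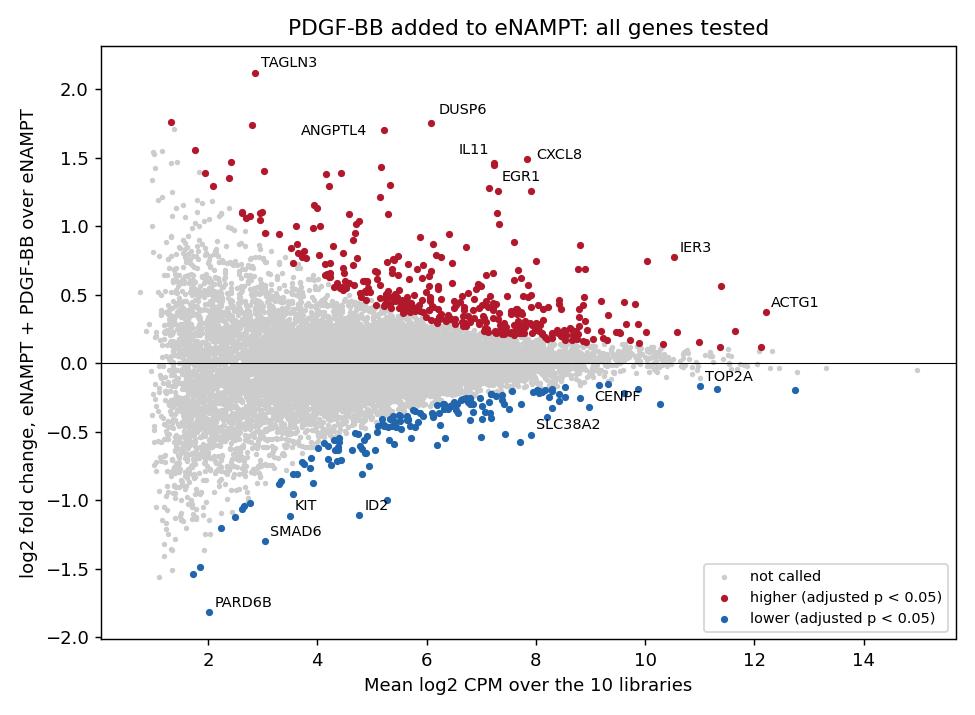
Each point is 1 of the 12111 genes tested, with its mean log2 CPM over the 10 libraries on the x axis and its log2 fold change, eNAMPT + PDGF-BB over eNAMPT, on the y axis. Red points are the 359 higher genes and blue points the 152 lower genes, and the largest changes lie at low to middle abundance, from 2.12 for TAGLN3 to -1.82 for PARD6B.

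The libraries held 3363709 ± 464375 gene counts with eNAMPT + PDGF-BB and 3270587 ± 246521 with eNAMPT (SD, n = 5 each; exact permutation test, two-sided, p = 0.675). Mitochondrial genes took 8.60% ± 0.232 of gene counts with both factors and 9.07% ± 0.400 with eNAMPT (exact p = 0.0556, adjusted over 3 measures 0.167). In leave-out tests that exact p ran from 0.00794, without eNAMPT replicate 4, to 0.171, without replicate number 3. Spike-in transcripts took 2.20% ± 0.416 of all counts with both factors and 1.99% ± 0.146 with eNAMPT (exact p = 0.333, adjusted 0.5). Here the leave-out tests gave an exact p from 0.0159, without eNAMPT + PDGF-BB replicate 4, to 0.743, without replicate number 3. That replicate 4 library had the lowest share, 1.59%. The pericyte label was checked against 16 markers: PDGFRB averaged 136 CPM ± 12.6 in eNAMPT + PDGF-BB libraries and 117 CPM ± 14.9 in eNAMPT libraries, while HIGD1B was at 0 in all 10 and DES, KCNJ8 and ABCC9 were low. Summed markers gave 438 to 532 CPM with both factors and 413 to 485 CPM with eNAMPT for pericytes. Fibroblast markers, several of which mural cells share, gave 4300 to 5560 CPM and 4730 to 5510 CPM. Endothelial markers gave 32.9 to 43.1 CPM and 30.7 to 43.1 CPM, leukocyte markers 4.27 to 8.94 CPM and 5.10 to 10.5 CPM, and neural markers 31.9 to 48.9 CPM and 31.0 to 52.9 CPM. At 0 in all 10 libraries were 1 of 12 endothelial markers (EMCN), 7 of 14 leukocyte markers (CD3E and LYZ among them) and 4 of 13 neural markers (AQP4 and SOX10 among them). Others were detected, such as the endothelial marker ROBO4 at 13.7 CPM with both factors and 14.3 CPM with eNAMPT. The neural marker MBP had 25.7 CPM and 21.4 CPM. Epithelial markers gave 208 to 264 CPM with both factors and 144 to 195 CPM with eNAMPT, mostly KRT18, a simple keratin that is itself among the higher genes, and KRT14 was at 0. Their part in the results was not tested.

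The sequences just upstream of 5 responding genes are shown because serum response factor, a target of ERK signalling, binds the CArG box. The 3 rises with the smallest p whose promoters hold a CArG box or a kappaB site, and the 2 falls with the smallest p, were taken from RefSeq (GRCh38.p14). Up to 250 bases before the RefSeq start are printed, without bases that GENCODE 29 counts as part of the gene. Capitals mark a match on either strand to the CArG box (CC, then A or T in the next 6 positions, then GG) or the ETS site CCGGAA. The searched set also held the AP-1 site TGANTCA, the CRE TGACGTCA, the EGR site GCGTGGGCG and the kappaB site, and no match to these 4 was found in the 5 windows.
EGR1, chr5:138465229-138465478, plus strand, higher with PDGF-BB: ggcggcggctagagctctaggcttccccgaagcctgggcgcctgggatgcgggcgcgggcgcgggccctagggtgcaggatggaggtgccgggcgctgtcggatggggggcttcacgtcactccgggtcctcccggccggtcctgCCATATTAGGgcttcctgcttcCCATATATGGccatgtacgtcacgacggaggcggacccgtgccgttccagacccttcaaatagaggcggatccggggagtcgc
AKAP12, chr6:151239717-151239966, plus strand, higher with PDGF-BB: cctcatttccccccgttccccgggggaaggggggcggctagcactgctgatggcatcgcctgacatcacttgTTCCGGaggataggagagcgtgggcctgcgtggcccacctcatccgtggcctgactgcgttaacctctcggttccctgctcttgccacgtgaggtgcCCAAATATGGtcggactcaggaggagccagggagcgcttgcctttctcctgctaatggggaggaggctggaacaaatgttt
PDGFA, chr7:520297-520476, minus strand, higher with PDGF-BB: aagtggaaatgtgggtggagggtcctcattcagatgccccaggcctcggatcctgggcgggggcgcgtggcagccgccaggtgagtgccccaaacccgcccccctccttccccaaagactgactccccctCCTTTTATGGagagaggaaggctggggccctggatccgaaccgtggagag
TLE4, chr9:79571715-79571772, plus strand, lower with PDGF-BB: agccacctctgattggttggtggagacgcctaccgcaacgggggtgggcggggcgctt
SLC38A2, chr12:46372868-46373023, minus strand, lower with PDGF-BB: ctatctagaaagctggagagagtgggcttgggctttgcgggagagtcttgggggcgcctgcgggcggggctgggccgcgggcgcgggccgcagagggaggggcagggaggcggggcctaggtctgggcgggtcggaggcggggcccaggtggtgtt
EGR1 has 2 CArG boxes, whose first bases lie 105 and 83 bases before the start. AKAP12 has 1 at 81 bases with an ETS site at 178, and PDGFA has 1 at 120. In windows of 300 bases, from 250 before to 50 after the start, a CArG box was found in 1.29% of 35116 RefSeq promoters, TGANTCA in 7.71%, TGACGTCA in 1.85%, GCGTGGGCG in 0.795%, the kappaB site in 11.3% and CCGGAA in 17.2%. A match is a description of the letters. The presence of a CArG box or kappaB site was part of the choice of the 3 rises. A promoter was matched for 79.4% of the higher genes and 78.9% of the lower ones, which is too few to compare the groups.

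Immediate early genes, which are switched on without new protein synthesis and mostly encode transcription factors, had the largest share of called members among the lists tested. Of 23 tested members 17 rose and 0 fell, against 2.96% of all genes that rose and 1.26% that fell. Their median log2 fold change was 0.54 against 0 for all genes. Counts of the lists that follow are to be read beside the same shares. The 17 were EGR1, FOS, FOSB, FOSL1, JUN, JUNB, KLF6, KLF10, IER2, IER3, IER5, SRF, MYC, BHLHE40, MAFF, CYR61 and CTGF. Spike-in scaling left 5 of them. NR4A1, NR4A2, NR4A3, EGR3 and EGR4 had too few counts to be tested.

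EGR1 (ENSG00000120738, chr5:138465490-138469315, GRCh38), a zinc finger transcription factor and the gene with 2 CArG boxes above, had 245, 225, 273, 283 and 223 CPM in replicates 1 to 5 with eNAMPT + PDGF-BB. With eNAMPT it had 73.7, 84.7, 95.1, 97.9 and 108 CPM. The groups did not overlap, and the lowest combined library held more than every eNAMPT library. It was higher by 1.44 on the log2 scale (SE 0.07, adjusted p = 1.46e-36). Such a separation, with all combined libraries above, was seen in 1.75% of the genes tested. It held for 157 of the 359 higher genes, so it is common among called genes.

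FOSB and FOS, the AP-1 subunits, were low in abundance. FOSB had 8.03, 7.58, 19.2, 16.8 and 11.8 CPM with both factors and 0.887, 5.71, 2.73, 4.14 and 5.22 CPM with eNAMPT. These groups did not overlap either, and FOSB rose by 1.74 (SE 0.31, adjusted p = 1.05e-05). FOS averaged 5.25 CPM ± 1.12 and 1.73 CPM ± 1.44 (SD, n = 5 each), a rise of 1.56 (SE 0.47, adjusted p = 0.0351) whose call ended in 9 of the 15 fits without 1 library or replicate number. IER3, an apoptosis regulator and the most abundant of the list, averaged 1940 CPM ± 308 with both factors and 1140 CPM ± 185 with eNAMPT (log2 fold change 0.77, SE 0.04). IER2 averaged 265 CPM ± 28.0 and 143 CPM ± 12.2 (0.88, SE 0.07), without overlap. CYR61, a secreted matricellular protein gene, averaged 1080 CPM ± 254 and 800 CPM ± 212, with overlapping groups but a rise in 5 of 5 pairs (0.43, SE 0.05), and was not called without the block.

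ERK feedback genes are the phosphatases, Sprouty proteins and ligands that ERK signalling induces. They rose in 10 of 22 tested cases, beside 2.96% of all genes, and fell in 0, with a median of 0.40. Those that rose were DUSP1, DUSP4, DUSP5, DUSP6, SPRY4, PHLDA1, HBEGF, AREG, EREG and EPHA2. Spike-in scaling left 5. DUSP6 (ENSG00000139318, chr12:89347232-89353271), the cytoplasmic phosphatase that inactivates ERK, had 122, 127, 123, 137 and 114 CPM with eNAMPT + PDGF-BB, and 37.6, 44.1, 44.4, 21.0 and 40.2 CPM with eNAMPT. The combined libraries lay close together and far above the others. On the log2 scale the rise was 1.75 (SE 0.11, adjusted p = 3.33e-29). DUSP5, a nuclear ERK phosphatase, averaged 62.2 CPM ± 6.08 and 25.2 CPM ± 3.11 (1.30, SE 0.13). HBEGF, a ligand of the EGF receptor, had 198, 217, 251, 285 and 292 CPM with both factors and 95, 81.8, 98.7, 96.0 and 153 CPM with eNAMPT. Here replicate 5 was the highest of the eNAMPT libraries and still below every combined library (1.26, SE 0.07, adjusted p = 2.85e-32). PHLDA1, a pleckstrin homology domain gene, averaged 189 CPM ± 38.2 and 121 CPM ± 34.3 (0.66, SE 0.07) and overlapped between the groups.

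Secreted growth factors and cytokines rose in 11 of 21 tested cases, beside 2.96% of all genes, and fell in 0 (median 0.42). The 11 were VEGFA, VEGFC, FGF1, FGF2, FGF5, ANGPTL4, THBS1, INHBA, LIF, IL11 and STC1. Spike-in scaling left 5 and the fit without the block 7. IL11 (ENSG00000095752, chr19:55364389-55370463), a cytokine of the IL-6 family, had 209, 181, 312, 304 and 264 CPM with eNAMPT + PDGF-BB and 88.2, 85.0, 96.7, 83.2 and 103 CPM with eNAMPT. The eNAMPT libraries were tightly grouped, and the lowest combined library stood well above them. On the log2 scale IL11 rose by 1.46 (SE 0.08, adjusted p = 2.14e-34). LIF, another ligand of that family, had 46.8, 55.0, 58.5, 57.7 and 74.9 CPM with both factors and 21.6, 15.9, 24.5, 21.4 and 25.5 CPM with eNAMPT, again without overlap (1.43, SE 0.14, adjusted p = 5.49e-16).

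Factors outside that family moved in the same way. INHBA, the activin A subunit, averaged 221 CPM ± 46.4 with both factors and 90.3 CPM ± 4.16 with eNAMPT (1.28, SE 0.08). STC1, the secreted glycoprotein stanniocalcin 1, averaged 377 CPM ± 40.0 and 160 CPM ± 40.7 (1.26, SE 0.07). ANGPTL4, a secreted inhibitor of lipoprotein lipase, averaged 66.9 CPM ± 13.3 and 20.4 CPM ± 3.71 (1.70, SE 0.13). None of the 3 overlapped between the groups, as was seen in 1.75% of all genes tested and 157 of the 359 higher genes.

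The PDGF system itself was represented by 4 tested genes, and PDGFA was the only one called. PDGFA (ENSG00000197461, chr7:497258-520296) encodes the A chain, a ligand of PDGFRA. It had 228, 229, 216, 232 and 228 CPM with eNAMPT + PDGF-BB and 104, 97.7, 112, 101 and 116 CPM with eNAMPT. Both groups were narrow and far apart (log2 fold change 1.10, SE 0.07, adjusted p = 6.87e-29). PDGFRB, the receptor of PDGF-BB, had 129, 126, 139, 156 and 129 CPM with both factors and 110, 118, 110, 142 and 104 CPM with eNAMPT. It was higher in 5 of 5 pairs but missed the threshold (0.22, SE 0.07, adjusted p = 0.0803). PDGFRA stood at -0.21 (SE 0.09, adjusted p = 0.179) and was lower in 5 of 5 pairs, and PDGFC had -0.01 (SE 0.10, adjusted p = 0.989). TLR4, described as a receptor of eNAMPT, averaged 30.5 CPM ± 3.71 and 28.1 CPM ± 3.77 (0.12, SE 0.14, adjusted p = 0.773). Of the 9 tested receptors and adaptors for the 2 factors, 0 were called by edgeR, DESeq2 or limma-voom, and 3 had an unadjusted p under 0.05 in edgeR.

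**Figure D2:**
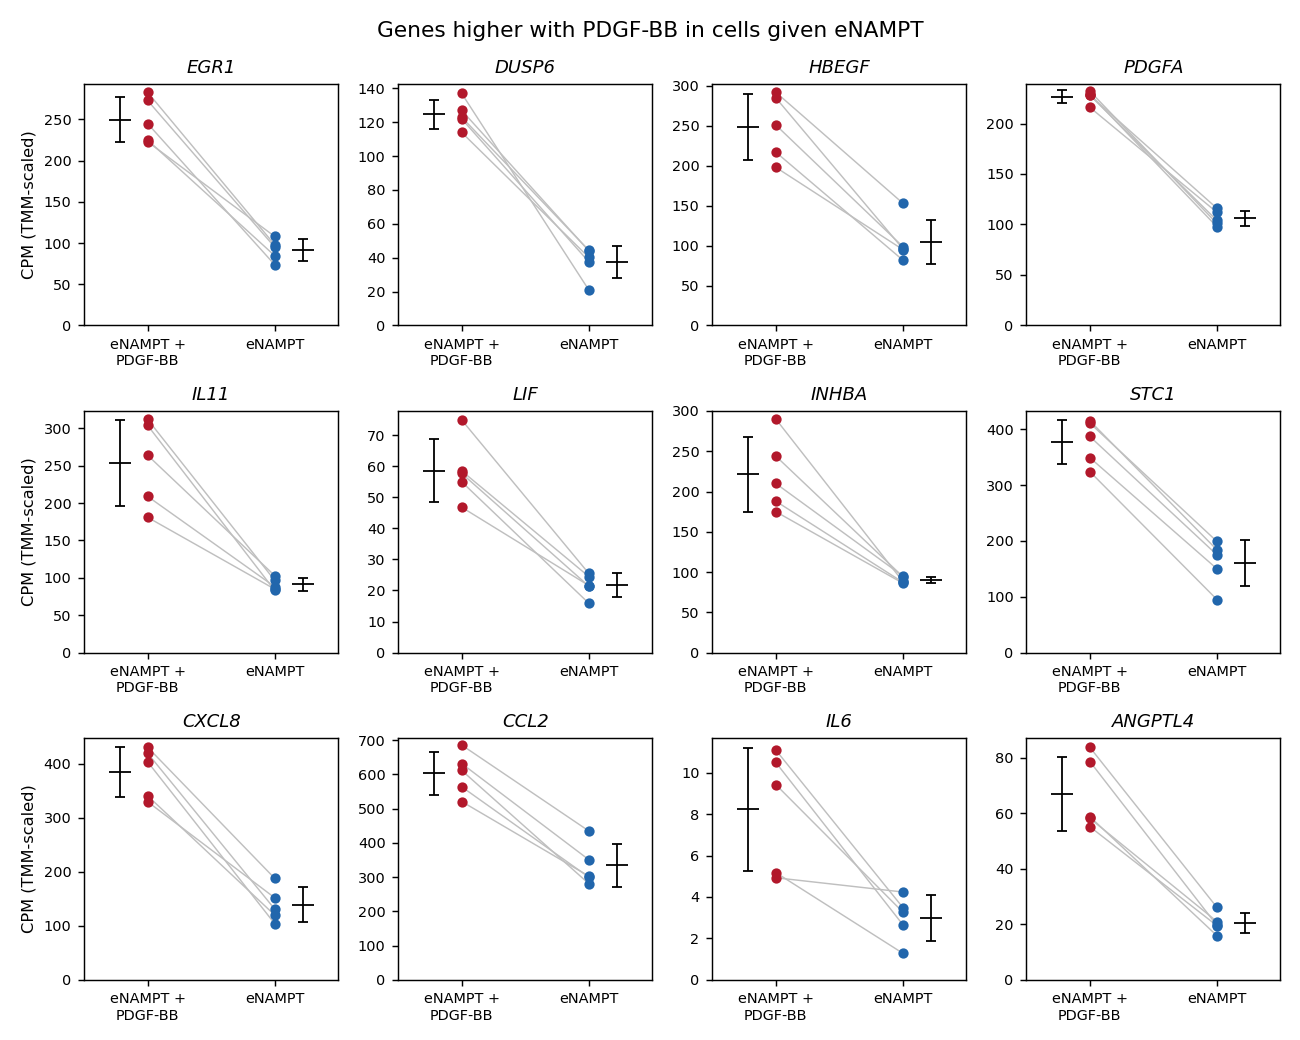
TMM-scaled CPM of 12 genes higher with PDGF-BB, with eNAMPT + PDGF-BB libraries on the left in red and eNAMPT libraries on the right in blue. Grey lines join libraries with the same replicate number, and black bars are the mean ± SD of 5 libraries. In each of the 12 genes, among them IL11 and PDGFA, the 5 lines fall towards eNAMPT. The 12 were picked from the called genes, some under a rule that required the same direction in 5 of 5 pairs. The shared direction of the lines is thus partly set by the choice.

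Of 35 tested inflammatory genes that NF-kB is known to induce, 16 rose and 0 fell when PDGF-BB was added, with a median of 0.46. Among all genes 2.96% rose. The 16 included the chemokines CXCL3, CXCL8 and CCL2, the cytokines IL1B and IL6, the adhesion molecules ICAM1 and VCAM1, and the pathway members NFKBIE, NFKB1, RELB, TNFAIP2, TNFAIP3, TNIP1 and TRAF1, with PTX3 and CD83. Spike-in scaling left 7. CXCL8 (ENSG00000169429, chr4:73740506-73743716), the neutrophil chemokine interleukin 8, had 341, 330, 420, 404 and 431 CPM with eNAMPT + PDGF-BB and 120, 152, 131, 104 and 188 CPM with eNAMPT. The groups were clearly separate (1.49, SE 0.07, adjusted p = 2.42e-38). CCL2, the monocyte chemokine, had 612, 521, 564, 632 and 686 CPM with both factors and 281, 303, 300, 351 and 435 CPM with eNAMPT. It did not overlap either (0.86, SE 0.06, adjusted p = 6.87e-29).

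PTX3, a soluble pattern recognition molecule, averaged 229 CPM ± 32.5 and 114 CPM ± 25.7 (1.02, SE 0.07). TRAF1, a signalling adaptor, averaged 28.0 CPM ± 4.06 and 10.8 CPM ± 2.5 (1.38, SE 0.19). NFKB1, which encodes the p105 and p50 subunits, averaged 114 CPM ± 12.2 and 68.7 CPM ± 5.34 (0.73, SE 0.09). These 3 were called with and without the block. IL6 was near the lower limit of what could be measured, at 8.22 CPM ± 2.96 and 2.99 CPM ± 1.11 (1.47, SE 0.40, adjusted p = 0.0126), and its call ended in 7 of 15 leave-out fits. BCL2A1, a BCL2 family survival gene, averaged 3.45 CPM ± 1.17 and 1.05 CPM ± 0.521 (1.76, SE 0.55, adjusted p = 0.0419), and its call ended in 13 of 15.

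Interferon-induced genes also moved upward, by smaller steps. Of 32 tested members 15 rose, beside 2.96% of all genes, with a median of 0.27. The transcription factor IRF1 was the 1 that fell, a call that ended in 13 of 15 leave-out fits. The 15 included IFI44L, MX1, MX2, RSAD2, IFIT1, OAS1, OASL, GBP1, IFI35, IFIH1, DDX58, XAF1, USP18 and SAMD9L. GBP1, an interferon-induced GTPase, had 303, 332, 258, 374 and 341 CPM with eNAMPT + PDGF-BB and 236, 250, 191, 269 and 281 CPM with eNAMPT. The groups overlapped, while each of the 5 pairs was higher with both factors (0.39, SE 0.06, adjusted p = 1.53e-07). XAF1, a pro-apoptotic gene, averaged 280 CPM ± 52.3 and 211 CPM ± 36.9 (0.41, SE 0.06). DDX58, the viral RNA sensor RIG-I, averaged 119 CPM ± 14.6 and 89.0 CPM ± 11.1 (0.41, SE 0.09). This list depended on the pairing more than those above: 2 members were called without the block and 0 with spike-in scaling, and 9 without eNAMPT replicate 3 or without replicate 3 or 4.

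Regulators of small and heterotrimeric G proteins rose in 5 of 10 tested cases, beside 2.96% of all genes, and fell in 0. They had the highest median of the lists, 0.58. Spike-in scaling left 1. RRAD, a Ras-related GTPase, averaged 35.0 CPM ± 8.76 with both factors and 13.6 CPM ± 5.32 with eNAMPT (1.39, SE 0.17). RGS4, which shortens G protein signalling, averaged 261 CPM ± 36.1 and 163 CPM ± 26.7 (0.68, SE 0.07), and RGS3, of the same family, 78.4 CPM ± 7.85 and 47.8 CPM ± 5.21 (0.71, SE 0.10). RND3, an atypical small GTPase that loosens actin stress fibres, averaged 306 CPM ± 17.0 and 228 CPM ± 29.9 (0.43, SE 0.06). None of these 4 overlapped between the groups, which also held for 1.75% of all genes tested and 157 of the 359 higher genes. AKAP12, a scaffold for protein kinases A and C named through its promoter above, averaged 1360 CPM ± 165 and 815 CPM ± 122 (0.74, SE 0.04), also without overlap.

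Genes of pericellular proteolysis rose in 8 of 18 tested cases, beside 2.96% of all genes, and fell in 0 (median 0.39). Among the 8 were PLAT, PLAU, PLAUR, TIMP1, TIMP3, ADAMTS1 and ADAMTS6. Under spike-in scaling 0 were called. PLAUR, the urokinase receptor, averaged 607 CPM ± 51.3 and 378 CPM ± 49 (0.69, SE 0.05). ADAMTS1, a metalloprotease, averaged 263 CPM ± 17.7 and 172 CPM ± 34.5 (0.62, SE 0.07), and TIMP3, a matrix-bound protease inhibitor, 916 CPM ± 84.2 and 675 CPM ± 92.8 (0.45, SE 0.05).

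Structural matrix genes as a list did not shift in their median, which was 0. Of 28 tested, 3 were higher and 2 lower, larger shares than the 2.96% and 1.26% of all genes. HAS2, which makes hyaluronan, averaged 56.2 CPM ± 4.62 with both factors and 26.7 CPM ± 5.35 with eNAMPT (1.09, SE 0.12). TNC, the matrix glycoprotein tenascin C, averaged 152 CPM ± 7.28 and 103 CPM ± 15.4 (0.57, SE 0.08), and COL6A3 506 CPM ± 52.4 and 385 CPM ± 38.6 (0.39, SE 0.05). The fibrillar collagen gene COL1A2 was lower in 5 of 5 pairs, at 876 CPM ± 79.4 and 1000 CPM ± 99.0 (-0.19, SE 0.04, adjusted p = 0.000889). COL1A2 and COL3A1, the other fall, were not called without the block, and 1 of the 2 was called in 7 of 15 leave-out fits.

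Contractile and cytoskeletal genes rose in 9 of 27 cases, beside 2.96% of all genes, and fell in 0, with a median of 0.09. ACTG1, cytoplasmic gamma actin, averaged 5420 CPM ± 704 with both factors and 4180 CPM ± 438 with eNAMPT (0.37, SE 0.03, adjusted p = 5.52e-18). Smaller rises were called for ACTB (0.15, SE 0.04), TAGLN (0.22, SE 0.04), VCL (0.27, SE 0.06) and ZYX (0.21, SE 0.05), genes of actin filaments and focal adhesions. TAGLN3, a relative of TAGLN known mainly from neurons, showed the largest rise of the comparison, with 20.9, 7.58, 16.9, 10.4 and 16.4 CPM with eNAMPT + PDGF-BB and 2.96, 2.22, 4.09, 3.51 and 3.26 CPM with eNAMPT. The lowest combined library exceeded the highest eNAMPT library (2.12, SE 0.29, adjusted p = 9.02e-09). Of the list's 9 rises, 1 was called without the block, 0 with spike-in scaling and 5 without replicate 4 of either group. Actin genes have near-identical copies and pseudogenes, so the split of reads among them is uncertain.

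Genes of cell growth gave a mixed picture. CCND1, cyclin D1, which drives the G1 phase, averaged 557 CPM ± 14.2 with both factors and 402 CPM ± 68.0 with eNAMPT (0.49, SE 0.05, adjusted p = 3.38e-13). CDKN1A, the cyclin-dependent kinase inhibitor p21, had 99.8, 111, 141, 136 and 104 CPM with eNAMPT + PDGF-BB and 74.5, 61.8, 67.0, 54.8 and 49 CPM with eNAMPT. The groups were apart (0.94, SE 0.09, adjusted p = 2.29e-15). CDK6, the partner of D-type cyclins, was called at 0.22 (SE 0.06, adjusted p = 0.0229), a call that ended in 7 of 15 leave-out fits. These 3 rises were the calls among 31 tested genes of S phase entry, beside 2.96% of all genes that rose. The median of the list was 0.01.

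Genes of ribosome biogenesis rose in 8 of 31 cases, beside 2.96% of all genes, and fell in 0 (median 0.12). DDX21 (0.29, SE 0.05), WDR43 (0.30, SE 0.06), LYAR (0.35, SE 0.08) and NOP16 (0.34, SE 0.08) were in front. These encode nucleolar proteins that process ribosomal RNA or assemble ribosomes. Without the block 0 of the 8 were called, and 0 with spike-in scaling. Without replicate 3, 3 of the list were called, 4 without eNAMPT + PDGF-BB replicate 3, and 5 without eNAMPT replicate 2, 3 or 4 or replicate number 4.

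Mitotic genes, in contrast, held 6 falls and 0 rises among 28 tested, against 1.26% of all genes that fell, with a median of -0.08. The 6 were CDC20, CENPF, TOP2A, ANLN, HMMR and DLGAP5, which act in chromosome segregation, chromosome structure, spindle assembly or cell division. CENPF, a kinetochore protein, had 506, 525, 381, 474 and 384 CPM with eNAMPT + PDGF-BB and 595, 572, 549, 557 and 538 CPM with eNAMPT. All combined libraries were lower than all eNAMPT libraries (-0.32, SE 0.05, adjusted p = 8.29e-07). That separation was found in 0.925% of genes and in 56 of the 152 lower genes. TOP2A, topoisomerase II alpha, averaged 1930 CPM ± 90.7 and 2170 CPM ± 160 (-0.17, SE 0.04). HMMR had -0.27 (SE 0.07) and CDC20 -0.21 (SE 0.06), calls that ended in 5 and 8 of 15 leave-out fits. CENPF alone of the 6 was called without the block, and 0 were called with spike-in scaling. In a bulk sample, fewer dividing cells and less RNA per cell cannot be told apart. Without eNAMPT + PDGF-BB replicate 3, 2 of the list were called, as without replicate number 3, and 3 without eNAMPT replicate 1 or 3 or replicate number 4.

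**Figure D3:**
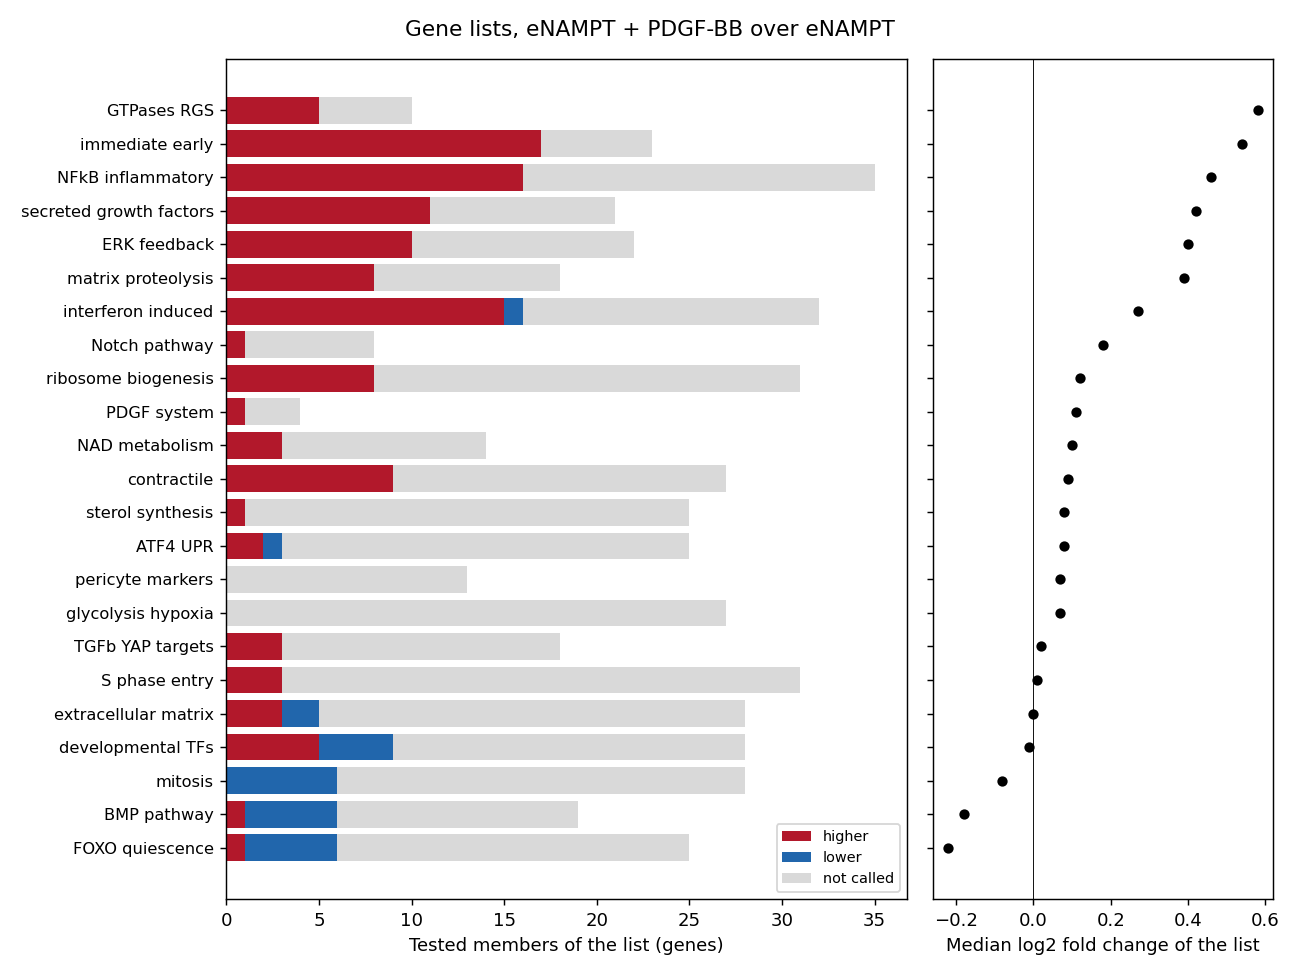
For each gene list, the left panel counts its tested members that were higher (red), lower (blue) or not called (grey) with eNAMPT + PDGF-BB against eNAMPT, and the right panel gives each list's median on the log2 fold change scale. Lists run from the G protein regulators (median 0.58) at the top to the FOXO and quiescence list (median -0.22) at the bottom, and the median of all genes is 0.

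Genes of the BMP pathway fell more often than they rose. Of 19 tested members 5 fell (ID1, ID2, ID3, SMAD6 and BMP4) and 1 rose (GREM1), with a median of -0.18. Among all genes 1.26% fell and 2.96% rose. ID genes are direct targets of BMP signalling and encode inhibitors of basic helix-loop-helix factors. ID2 (ENSG00000115738, chr2:8678845-8684453) had 18.2, 26.8, 15.3, 14.8 and 17.4 CPM with eNAMPT + PDGF-BB and 46.1, 54.5, 40.3, 34.1 and 25.1 CPM with eNAMPT. Replicate 2 of the combined group overlapped with replicate 5 of the eNAMPT group, but each pair was lower with both factors (-1.11, SE 0.15, adjusted p = 3.70e-09). ID3 had 254, 270, 244, 251 and 262 CPM with both factors and 357, 327, 336, 325 and 337 CPM with eNAMPT. Both groups were narrow and did not overlap (-0.39, SE 0.06, adjusted p = 4.65e-08). ID1 averaged 164 CPM ± 31.5 and 206 CPM ± 20.6, with overlap (-0.34, SE 0.07, adjusted p = 9.74e-05), and was not called without the block.

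SMAD6, an inhibitory SMAD that BMP signalling induces, had 5.94, 3.25, 3.58, 6.99 and 5.26 CPM with eNAMPT + PDGF-BB and 9.47, 14.0, 9.54, 11.2 and 17.0 CPM with eNAMPT. The groups did not overlap (-1.30, SE 0.28, adjusted p = 0.000612). BMP4, the ligand, had 6.63, 9.48, 8.45, 10.9 and 9.20 CPM with both factors and 13.9, 11.7, 14.7, 19.8 and 19.3 CPM with eNAMPT. It did not overlap either, and its call ended in 3 of 15 leave-out fits (-0.81, SE 0.22, adjusted p = 0.0122). GREM1, a secreted BMP antagonist, moved the other way and averaged 1030 CPM ± 76.9 and 846 CPM ± 71.2 (0.28, SE 0.04, adjusted p = 1.00e-07), also without overlap. The falls of SMAD6 and ID2 were called under spike-in scaling too.

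ATOH8, a basic helix-loop-helix factor described as a BMP target in other cells, had 11.9, 13.5, 5.85, 6.73 and 4.27 CPM with eNAMPT + PDGF-BB and 15.1, 17.4, 18.5, 16.9 and 12.7 CPM with eNAMPT. Replicate 2 of the combined group reached into the eNAMPT range (-0.96, SE 0.23, adjusted p = 0.00271), and the call ended without replicate number 3 (adjusted p = 0.0738).

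Genes known as FOXO targets or as markers of quiescence fell in 5 of 25 tested cases and rose in 1. Their median was the lowest of the lists, -0.22, and among all genes 1.26% fell and 2.96% rose. ARRDC3, an arrestin-domain adaptor, had 18.5, 29.8, 21.1, 21.7 and 15.8 CPM with eNAMPT + PDGF-BB and 39.0, 40.3, 41.2, 36.7 and 28.1 CPM with eNAMPT. Replicate 2 of the combined group and replicate 5 of the eNAMPT group overlapped slightly (-0.81, SE 0.15, adjusted p = 3.52e-05). TXNIP, which binds thioredoxin and limits glucose uptake, had 51.7, 74.5, 59.2, 64.5 and 52.6 CPM with both factors and 75.1, 77.0, 87.2, 81.3 and 74.8 CPM with eNAMPT. It did not overlap, though replicate 2 of the combined group came within 1 CPM of the eNAMPT range (-0.39, SE 0.10, adjusted p = 0.00622), and its call ended in 2 of 15 leave-out fits.

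CCNG2, an atypical cyclin of arrested cells, averaged 7.17 CPM ± 2.68 and 13.2 CPM ± 3.92 (-0.88, SE 0.26, adjusted p = 0.0328). KLHL24, a ubiquitin ligase adaptor, averaged 4.27 CPM ± 2.21 and 8.84 CPM ± 4.18 (-1.04, SE 0.33, adjusted p = 0.0492). HBP1, a transcriptional repressor of cell cycle genes, averaged 16.5 CPM ± 4.31 and 25.4 CPM ± 2.28 (-0.63, SE 0.18, adjusted p = 0.0169). Those calls ended in 9, 10 and 7 of 15 leave-out fits. The member that rose was GADD45A, a growth arrest gene, at 283 CPM ± 53.4 and 189 CPM ± 9.09 (0.57, SE 0.07, adjusted p = 6.84e-12). Of the 5 falls, ARRDC3 alone was called without the block, 1 fall of the list was called without replicate number 3, and 2 without eNAMPT + PDGF-BB replicate 1, eNAMPT replicate 3 or replicate number 4. The fits without eNAMPT + PDGF-BB replicate 4 or 5, eNAMPT replicate 2 or 5, or replicate number 1 called 3.

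Developmental transcription factors moved in both directions, 5 up and 4 down of 28 tested, with a median of -0.01. Among all genes 2.96% rose and 1.26% fell. TBX3, a T-box repressor, had 167, 162, 142, 109 and 134 CPM with eNAMPT + PDGF-BB and 92.9, 95.4, 79.6, 60.6 and 68.6 CPM with eNAMPT. No library overlapped (0.85, SE 0.08, adjusted p = 4.95e-17). SOX9, a factor of cartilage and progenitor cells, averaged 74.9 CPM ± 11.1 and 48.9 CPM ± 7.10 (0.62, SE 0.10), and the homeobox gene MSX1 212 CPM ± 14.9 and 163 CPM ± 13.0 (0.38, SE 0.06). TBX2 and FOXD1 were the other rises. The 4 falls included ZIC1, ZIC2 and TWIST1, and 2 of the 4 were called without eNAMPT replicate 1 or 4, without eNAMPT + PDGF-BB replicate 3, 4 or 5, or without replicate number 1, 3 or 4. Of the 5 rises, 3 were called without eNAMPT + PDGF-BB replicate 4 or replicate number 4. ZIC1, a zinc finger factor of the neural crest and dorsal mesoderm, had 85.9, 114, 91.0, 80.0 and 109 CPM with both factors and 138, 139, 108, 125 and 130 CPM with eNAMPT (-0.41, SE 0.08, adjusted p = 9.42e-05). Replicates 2 and 5 of the combined group overlapped with replicate 3 of the eNAMPT group.

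KIT, the receptor tyrosine kinase for stem cell factor and a relative of the PDGF receptors, had 8.73, 7.58, 4.55, 9.84 and 6.24 CPM with both factors and 14.2, 15.2, 11.4, 20.7 and 18.9 CPM with eNAMPT. It was lower in every combined library than in every eNAMPT library (-1.11, SE 0.25, adjusted p = 0.00106).

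SLC38A2, a neutral amino acid transporter and the only fall among 25 tested ATF4 and unfolded protein response genes, had 183, 216, 226, 203 and 176 CPM with eNAMPT + PDGF-BB and 264, 274, 309, 283 and 309 CPM with eNAMPT. The groups did not overlap (-0.52, SE 0.06, adjusted p = 1.28e-11), and the fall was called without the block and with spike-in scaling. TLE4, a corepressor of the Groucho family, averaged 172 CPM ± 26.4 and 256 CPM ± 12.6 (-0.58, SE 0.06, adjusted p = 1.70e-13). ATF4 and DDIT3 of the same list were called as rises, but neither was called without the block, without eNAMPT + PDGF-BB replicate 1 or 3, without eNAMPT replicate 3, or without replicate number 1 or 3, and 1 was called in 6 other leave-out fits.

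Further falls among the 15 largest lay at low counts. PARD6B had 1.75, 1.35, 1.63, 1.29 and 3.29 CPM with both factors and 4.44, 6.66, 7.90, 6.69 and 6.53 CPM with eNAMPT. Each combined library was below each eNAMPT library (-1.82, SE 0.43, adjusted p = 0.00227). FIGN, a microtubule-severing ATPase, averaged 11.1 CPM ± 2.97 and 20.1 CPM ± 3.61 (-0.88, SE 0.20), and SYNDIG1, a synapse protein gene, 8.56 CPM ± 2.17 and 15.0 CPM ± 2.89 (-0.81, SE 0.22). L3MBTL1, a chromatin compaction gene, averaged 2.79 CPM ± 0.968 and 6.41 CPM ± 2.00 (-1.21, SE 0.38), ZNF616 3.50 CPM ± 1.35 and 7.92 CPM ± 2.57 (-1.12, SE 0.35) and ZRANB3, a DNA translocase of replication stress, 4.87 CPM ± 3.29 and 9.41 CPM ± 2.95 (-1.02, SE 0.31). The calls of SYNDIG1, L3MBTL1, ZNF616 and ZRANB3 ended in 5, 12, 11 and 11 of 15 leave-out fits. Of the rises at a similar level, LINC-PINT (ENSG00000226380, a long non-coding RNA, as this identifier counts it) averaged 7.51 CPM ± 2.5 and 2.87 CPM ± 0.216 (1.35, SE 0.37, adjusted p = 0.0123), and its call ended in 4 of 15.

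**Figure D4:**
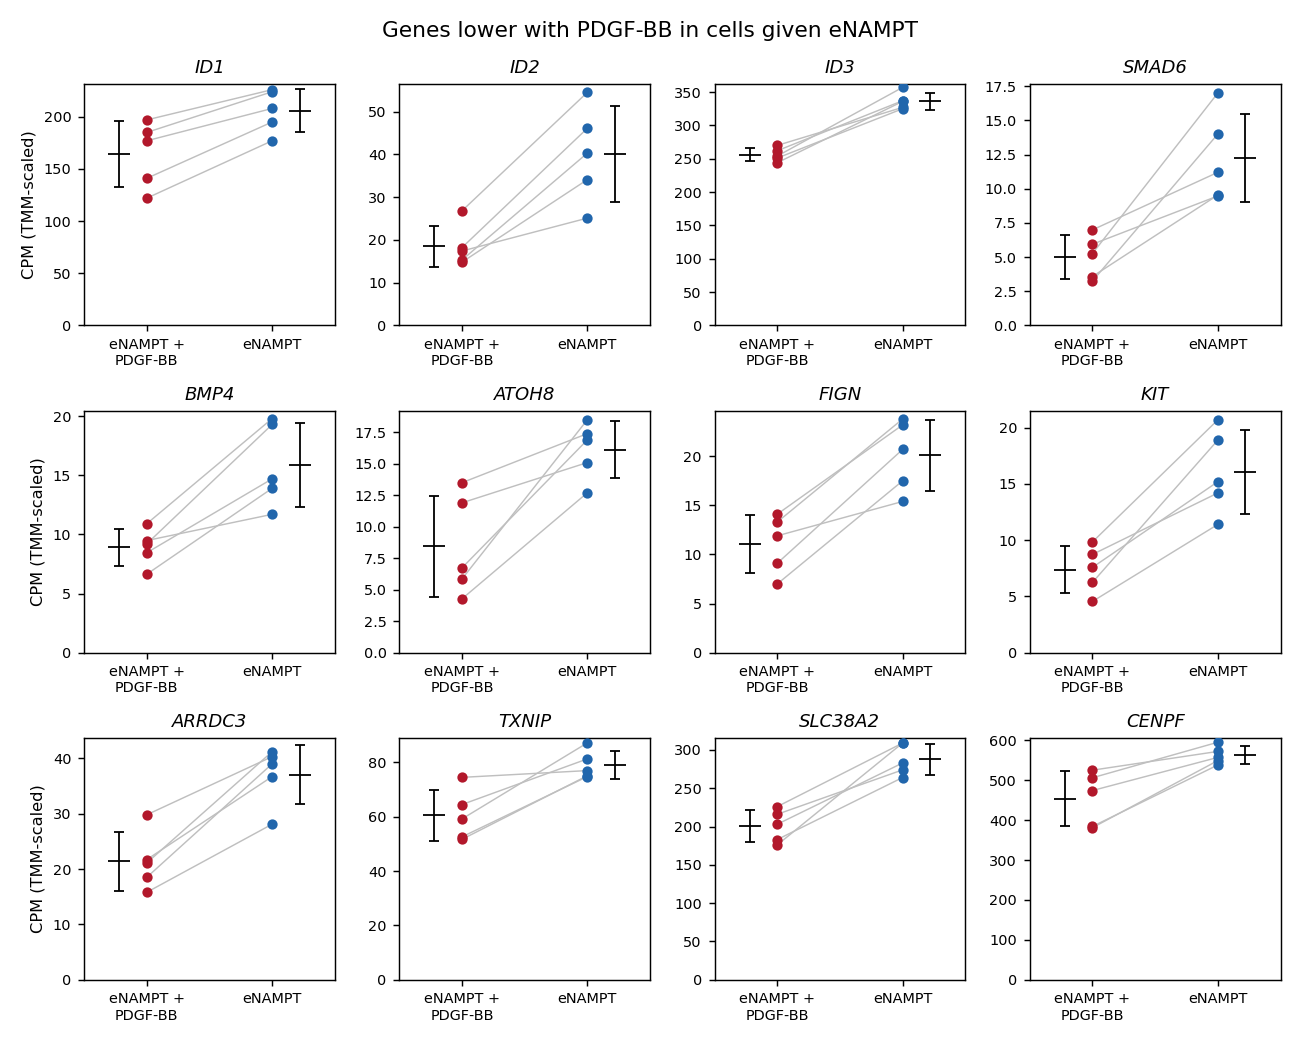
TMM-scaled CPM of 12 genes lower with PDGF-BB, with eNAMPT + PDGF-BB libraries on the left in red and eNAMPT libraries on the right in blue. Grey lines join the same replicate number, and black bars are the mean ± SD of 5 libraries. All 60 lines rise towards eNAMPT, and the groups overlap for ID1, ID2, ATOH8 and ARRDC3. The 12 were picked from the called genes, some under a rule that required the same direction in 5 of 5 pairs. The shared direction of the lines is thus partly set by the choice.

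The lists of glycolysis, pericyte markers, sterol synthesis, Notch, TGF-beta and YAP targets and NAD metabolism moved little by median, from 0.02 to 0.18. Their rises stand beside 2.96% of all genes, a share that NAD metabolism and the TGF-beta and YAP list clearly exceeded. Of 27 tested genes of glycolysis and hypoxia 0 were called, as were 0 of 13 pericyte markers, by edgeR, DESeq2 or limma-voom, where 5 and 2 had an unadjusted p under 0.05 in edgeR. The chondroitin sulfate proteoglycan CSPG4, the marker NG2, stood at 0.19 (SE 0.10, adjusted p = 0.385). Of 25 sterol synthesis genes INSIG1 rose, of 8 Notch genes HES4, and of 18 TGF-beta and YAP target genes PMEPA1, ANKRD1 and WWTR1. The Notch list had 0 calls without eNAMPT + PDGF-BB replicate 5, and the TGF-beta and YAP list had 1 without replicate 4 of either group or without replicate number 3 or 4. In NAD metabolism NAMPT, PARP14 and NT5E rose among 14 tested, and 1 was called without replicate number 4. NAMPT itself, the gene of the added protein, had 85.5, 90.5, 71.2, 91.4 and 82.5 CPM with eNAMPT + PDGF-BB and 65.1, 71.7, 70.6, 60.2 and 65.6 CPM with eNAMPT. The single overlap was replicate 3 of the combined group (0.34, SE 0.09, adjusted p = 0.0175), and the call ended without the block and in 7 of 15 leave-out fits. Among markers of other cells, KRT18 rose in 1 of 4 tested epithelial genes, at 211 CPM ± 26.7 and 150 CPM ± 19.5 (0.49, SE 0.07, adjusted p = 3.59e-09).

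The most abundant called genes changed least. The metallothionein MT2A averaged 3480 CPM ± 225 with both factors and 2970 CPM ± 299 with eNAMPT (0.23, SE 0.03), and TMSB4X, the actin monomer binder thymosin beta 4, 1670 CPM ± 204 and 1430 CPM ± 169 (0.22, SE 0.04). HSP90AB1, a chaperone, had 0.12 (SE 0.04), a call that ended in 12 of 15 leave-out fits. Of the mitochondrial genome, MT-RNR1, the small ribosomal RNA, averaged 6490 CPM ± 1310 and 7420 CPM ± 1210 (-0.20, SE 0.04), and MT-ND5, a complex I subunit, 2410 CPM ± 341 and 2750 CPM ± 280 (-0.19, SE 0.04), whereas MT-ATP6, an ATP synthase subunit, had 0.12 (SE 0.03), a call that ended in 6 of 15. HSP90AB1 and MT-ATP6 turned to -0.04 each with spike-in scaling, and none of MT2A, TMSB4X, HSP90AB1 and the 3 mitochondrial genes was called without the block. MT2A, TMSB4X, HSP90AB1 and mitochondrial genes have close paralogs, pseudogenes or nuclear copies, so their counts are uncertain to that extent.

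The authors' deposited table gives its own test of the same comparison. It holds an adjusted p for 11560 genes, and 205 were under 0.05, 153 higher and 52 lower with both factors. All 205 were also called here in the same direction.

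The same growth factor was given without eNAMPT to 5 further cultures, which were compared with 5 untreated ones in the same model. These libraries are separate from the 10 above but share the replicate numbers and the estimate of spread. Without eNAMPT, 299 genes were higher (2.47% of those tested) and 78 lower (0.644%) with PDGF-BB than in untreated cells. Of the rises, 191 were called in both settings, 53.2% of the 359 with eNAMPT and 63.9% of the 299 without it. Of the falls, 29 were called in both, 19.1% of 152 and 37.2% of 78, and 0 genes were called in opposite directions. A log2 fold change above 0 without eNAMPT was found for 354 of the 359 rises, and one below 0 for 127 of the 152 falls, beside 48.8% of all genes above 0. The medians without eNAMPT were 0.32 for these rises and -0.15 for these falls, each nearer 0 than the medians with eNAMPT. The genes were chosen by the comparison with eNAMPT, so this contrast of medians is a description. Over all 12111 genes the fold changes correlated at r = 0.34, across genes that are not independent.

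**Figure D5:**
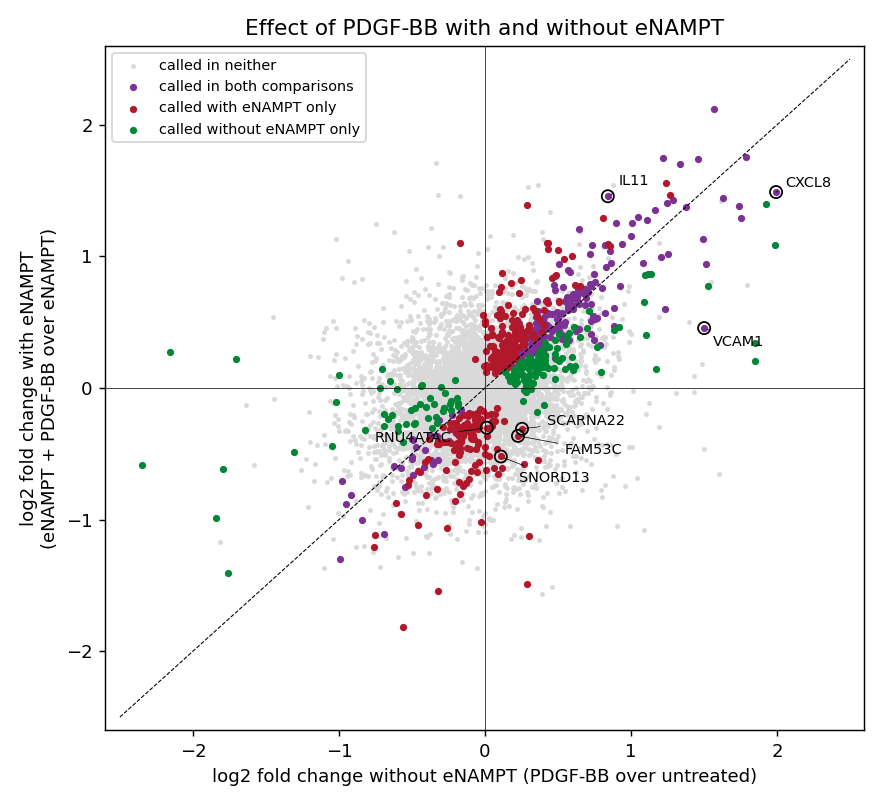
Log2 fold change of each gene for PDGF-BB over untreated cells (x axis) and for eNAMPT + PDGF-BB over eNAMPT (y axis), with the dashed line marking equal values. Purple points were called in both comparisons, red with eNAMPT only and green without it only. Circles mark the 7 genes whose difference between the settings was called, with IL11 above the line and CXCL8 and VCAM1 below it.

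Whether the effect of PDGF-BB differed with eNAMPT was tested as an interaction, the log2 fold change with eNAMPT minus that without it. Of 12111 genes 7 were called (0.0578%), 1 positive and 6 negative, and 662 had an unadjusted p under 0.05, where 606 would if no gene differed. Without the block edgeR called 0 (406 at an unadjusted p under 0.05), with spike-in scaling 0 (375), and DESeq2 called VCAM1 alone.

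IL11 was the positive one. PDGF-BB raised it to 254 CPM ± 57.7 with eNAMPT, against 91.3 CPM ± 8.57 with eNAMPT alone, and to 232 CPM ± 36.0 without eNAMPT, against 131 CPM ± 42.3 in untreated cells. The log2 fold changes were 1.46 and 0.84, a difference of 0.62 (SE 0.11, adjusted p = 0.000968). The levels with PDGF-BB were close, and the means without it differed more. The call ended without replicate 3.

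VCAM1, an adhesion molecule for leukocytes, had 46.8, 58.2, 58.2, 73.8 and 51.9 CPM with eNAMPT + PDGF-BB and 41.7, 40.9, 41.4, 50.4 and 37.5 CPM with eNAMPT. The groups overlapped slightly, with 0.46 for the log2 fold change (SE 0.13, adjusted p = 0.0169). The call ended without the block and in 8 of 15 leave-out fits. With PDGF-BB alone it averaged 41.2 CPM ± 6.06 and in untreated cells 14.6 CPM ± 5.33 (1.5, SE 0.15). The difference was -1.05 (SE 0.20, adjusted p = 0.00200), and that call also ended without replicate 3. CXCL8 averaged 385 CPM ± 46.4 with both factors and 139 CPM ± 32.6 with eNAMPT, and 169 CPM ± 31.6 with PDGF-BB alone and 42.5 CPM ± 10.7 in untreated cells. Its difference was -0.50 (SE 0.12, adjusted p = 0.0451), called in 6 of 15 leave-out fits. Both genes were higher with PDGF-BB in each setting, by a smaller log2 difference where eNAMPT was present. In CPM, by group means, CXCL8 gained more with eNAMPT than without it, while VCAM1 gained less.

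The other 4 differences concerned genes with no call without eNAMPT. FAM53C, a gene of the FAM53 family, had 63.2, 67.4, 63.4, 63.2 and 73.3 CPM with eNAMPT + PDGF-BB and 84.6, 103, 80.1, 83.2 and 74.8 CPM with eNAMPT, without overlap (-0.36, SE 0.09, adjusted p = 0.00751), a call that ended in 2 of 15 leave-out fits. It averaged 79.9 CPM ± 3.96 with PDGF-BB alone and 68.5 CPM ± 8.17 in untreated cells. The difference was -0.59 (adjusted p = 0.0449), called in 4 of 15 leave-out fits.

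The last 3 are small non-coding RNAs. SNORD13, a small nucleolar RNA used in 18S ribosomal RNA maturation, had 241, 191, 99.8, 91.1 and 146 CPM with eNAMPT + PDGF-BB and 235, 289, 194, 141 and 217 CPM with eNAMPT. The groups overlapped and replicate 1 was higher with both factors (-0.52, SE 0.07, adjusted p = 1.58e-08). The interaction was -0.63 (SE 0.10, adjusted p = 0.000150), called in 15 of 15 leave-out fits. SCARNA22, a small Cajal body RNA, averaged 120 CPM ± 32.5 with both factors and 147 CPM ± 33.1 with eNAMPT, with an interaction of -0.56 (adjusted p = 0.0111), called in 9 of 15 leave-out fits. RNU4ATAC, the U4atac RNA of the minor spliceosome, averaged 1170 CPM ± 410 and 1420 CPM ± 358, with an interaction of -0.31 (adjusted p = 0.0449), called in 4 of 15. Each of the 3 varied widely between replicates, none of their falls was called without the block, and that of SCARNA22 ended in 5 of 15 leave-out fits. Whether counting used strand is not given in the sources used here, so reads of a small RNA cannot be told apart from those of a gene that overlaps it.

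Next in order of interaction p were IFI44L (-0.46), MX1 (-0.39) and PTK7 (-0.36), each with an adjusted p of 0.141. IFI44L and MX1 are interferon-induced antiviral genes, and PTK7 is a pseudokinase receptor of Wnt signalling. IFI44L rose by 0.33 with eNAMPT and 0.79 without it, and MX1 by 0.36 and 0.75, differences that did not pass the test.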

How the data were processed

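RNA was extracted with the SPLIT kit and sequenced on an Illumina NextSeq 500, per the labels. The submitters' processing notes name GRCh38, STAR 2.6.1a, featureCounts 1.6.4, DESeq2 1.18.1 and FastQC 0.11.7, without saying how each was used, and strandedness is not given in the sources used here. The authors deposited whole-number raw counts per gene and library. Their table also holds, for each comparison, log2 fold changes and adjusted p-values by the authors. A further deposited table of counts served as an alternative, and what separates the tables is not stated.

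The 99 spike-in transcripts were removed. All 58676 gene identifiers matched GENCODE 29, the source of coordinates. Genes were filtered with filterByExpr, scaled by TMM and fitted in edgeR 4.0.16 (R 4.3.3; glmQLFit and glmQLFTest, two-sided) over all 20 libraries, with 4 group terms and replicate number 1 to 5 as a block, which leaves 12 residual degrees of freedom. P-values were Benjamini-Hochberg adjusted over 12111 genes and called under 0.05. A standard error is the log2 fold change divided by the square root of F. CPM are TMM-scaled, given as mean ± SD over 5 libraries. The code was also run on simulated counts with set effects, which checks the code and not the calls reported here. Depth ran from 2894878 to 4011066 gene counts in the 10 libraries compared.

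Alternatives were no block, the 10 libraries alone, DESeq2 1.42.0, limma-voom (limma 3.58.1), RLE and TMMwsp factors, spike-in scaling, 2 filters, a threshold of 0.01, the other table, and leaving out each library or replicate number in 15 fits. The comparison, gene lists and rules were chosen with earlier results of these data known. Named genes are the 15 largest rises and falls whose log2 CPM averages 1 or more and whose direction holds in 5 of 5 pairs, the 10 most abundant called genes, per list the 4 members at most with the lowest p, the 10 lowest interaction p, and 5 fixed genes. AKAP12 and TLE4 came from the promoter rule. Other list members that were called are named without values. Some items are not reported here.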

Additional observations from a re-analysis of the deposited data

Results flagged for a closer look

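In 13 of 218 groups of 5 libraries, 1 library stood apart from the other 4 by more than Dixon's criterion allows, where chance gives about 1 in 20. In 7 of the 13 it was replicate 5 of the eNAMPT group, at the high end, with 153 CPM of HBEGF, 159 CPM of PTX3, 232 CPM of ADAMTS1, 35.9 CPM of HAS2, 1.96 CPM of BCL2A1, 128 CPM of NOP16 and 2860 CPM of HSP90AB1. Without that library 296 genes were higher and 127 lower. In the eNAMPT + PDGF-BB group, replicate 2 had 26.8 CPM of ID2, replicate 3 had 216 CPM of PDGFA, the lowest of its group, and replicate 5 had 3.29 CPM of PARD6B and 219 CPM of TLE4. Replicate 4 of the eNAMPT group had the lowest PDGFC, 57.7 CPM, and the lowest mitochondrial share of its group, 8.38%.

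The effect of PDGF-BB differed between cells with and without eNAMPT by the interaction test for 7 genes. The difference on the log2 scale was 0.62 for IL11, -0.50 for CXCL8, -1.05 for VCAM1, -0.63 for SNORD13, -0.56 for SCARNA22, -0.31 for RNU4ATAC and -0.59 for FAM53C.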

How the results depend on the processing

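Higher and lower calls numbered 359 and 152. They were 143 and 42 with no replicate block, 36 and 28 with spike-in scaling, 226 and 66 at a threshold of 0.01, and stayed within 1.5 times in DESeq2 (353 and 134), limma-voom, the 10-library fit, RLE, TMMwsp, the other filters and the other table. Leaving out a library or replicate number gave 240 to 326 higher and 77 to 127 lower genes. The falls numbered 93 without eNAMPT replicate 3, 77 without replicate 3 and 90 without replicate 4. The 7 interaction calls became 0 with no replicate block, 0 with spike-in scaling, 1 with DESeq2, 3 at a threshold of 0.01, 4 in the other table and 3 to 9 in leave-out fits. Without eNAMPT, PDGF-BB gave 299 higher and 78 lower genes, and 127 and 20 with no replicate block, 65 and 6 with spike-in scaling, 190 and 31 at 0.01, and 50 lower without a filter. Leave-outs gave 182 to 302 higher and 45 to 79 lower.

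Same-numbered libraries of the 2 groups deviated together with r of 0.06 to 0.14, against -0.08 to 0.07 for other pairs, and 4 of 5 combined libraries matched their own number best. Not every pair passed 0.1, so the numbers are not shown to pair the samples. Of the 100 named genes that were called, 45 of 67 rises and 15 of 33 falls were called with no replicate block, and 72 of the 100 in all 15 leave-out fits. MT-ATP6 and HSP90AB1 turned to -0.04 each with spike-in scaling. The exact p of the mitochondrial share ran from 0.00794 to 0.171 and that of the spike-in share from 0.0159 to 0.743 in leave-out tests. The cause of these shifts was not tested. Depth limits genes below about 10 CPM, which rest on few counts.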
